A study of Mus musculus with 6 samples.

Results

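Matrix metalloproteinases (Mmp), the membrane-bound Adam proteases, the secreted Adamts proteases, their relatives without a protease domain (Adamtsl) and the 4 tissue inhibitors (Timp) were followed in mouse lung. Members were taken by symbol alone, by the patterns Mmp, Adam, Adamts, Adamtsl or Timp plus a number, and 69 of the 29703 symbols in the table matched: 19 Mmp, 23 Adam, 18 Adamts, 5 Adamtsl and 4 Timp genes. Whole lungs of balb/c mice were sequenced on day 0 (D0, 3 libraries) and day 14 (D14, 3 libraries) after K7M2 cells, an osteosarcoma line of balb/c origin that spreads to the lung, had been implanted orthotopically. Both groups carry the label of implantation, neither the age of the mice nor the number of mice per library is given, and no D14 group without implanted cells is part of the series. The tumour, the procedure, age and collection day cannot be told apart by this design. The titles call the 3 libraries of each day biological replicates. Where libraries nevertheless share a source, the spread behind each p-value may be technical. In bulk lung, fewer cells of a type and less RNA per cell cannot be told apart either.

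These enzymes are metzincins, zinc proteases that share a catalytic histidine motif. Mmps are made as inactive proenzymes and cut collagens, elastin and other matrix proteins, either after secretion or from the cell surface. Adams mostly shed the outer parts of membrane proteins such as growth factors, cytokines and Notch receptors. Adamts proteases are secreted, bind the matrix through thrombospondin repeats and cut proteoglycans, procollagens or fibrillin-linked proteins, while Adamtsl proteins keep the repeats and lack the enzyme. Timps block the active site, and the balance of enzyme and inhibitor sets how much lung matrix is turned over.

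The catalytic motif was looked for in the proteins encoded by the annotated transcripts of all 69 members. It was present in 50, namely in 19 of 19 Mmp, 18 of 18 Adamts and 13 of 23 Adam genes, and in 0 of 5 Adamtsl and 0 of 4 Timp genes. The 10 Adam genes without it were Adam3, Adam4, Adam5, Adam6b, Adam7, Adam11, Adam18, Adam22, Adam23 and Adam32, most of which are known from testis or nervous system as adhesion proteins.

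Library totals ran from 14878101 to 17385006 counts. D0 replicate 3 stood apart in cell markers, with 1046 summed CPM (counts scaled to library size) of the 9 alveolar macrophage markers against 383 to 501 in the other libraries. It also had the highest summed levels of red cell genes (52340 CPM against 9216 to 28845) and of the skeletal muscle genes Acta1 (326 CPM against 1.5 to 72.4) and Ckm (301 CPM against 21.6 to 78.7). The cardiac gene Myh6 was lowest in that library, at 39.2 CPM, and stood at 88.7 to 207 CPM in the D14 libraries. Myl7, the other cardiac gene listed, was lowest in D0 replicate 1. Its days overlapped, at 13.7 to 48.1 CPM at D0 and 39.0 to 59.8 CPM at D14. D14 replicate 3 had the highest adipocyte marker sum, at 286 CPM against 17.1 to 175 elsewhere. The RNA extraction text names bone marrow-derived macrophages, but surfactant and other alveolar type 2 markers stood at 19137 to 44413 summed CPM in each library. Of the osteoblast and osteosarcoma markers, Bglap and Sp7 had at most 2 counts in any library and Bglap2 at most 8, while Runx2 had 101 to 148, Alpl 263 to 591 and Phex 34 to 142. The list summed to 28.4 to 43.3 CPM at D0, below the 44.1 to 49.7 CPM of D14. Alpl alone gave 18.4 to 34.2 CPM of it, depending on the library. The log2 fold changes of the 3 tested genes were positive with unadjusted p-values from 0.114 to 0.480 in edgeR, and each of the 3 overlapped between days.

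The promoters of the members with the smallest p-values are shown because they stand at the head of the comparison below. A RefSeq promoter (build GRCm38.p6) was found for 42 of the 69 members, and of the 4 leading members for Adamts1, Adamtsl2 and Mmp11. Each line gives the 250 bases before the RefSeq start site, 5′ to 3′ on the gene's strand. For Adamts1 and Adamtsl2 that start is also the start of the gene in GENCODE, but for Mmp11 it lies at 75932502, which is 3994 bases inside the gene. Capitals mark matches to 4 motifs. These are TATAAA for the site of the general factor TBP, GGGCGG for the GC box bound by Sp factors, TGACG for the core of a cyclic AMP response element, and AGAACA for the core of a glucocorticoid receptor element. Overlapping matches were all counted. The Adamts1 window is chr16:85803114-85803363 on the minus strand, that of Adamtsl2 chr2:27079129-27079378 on the plus strand and that of Mmp11 chr10:75932503-75932752 on the minus strand.
Adamts1: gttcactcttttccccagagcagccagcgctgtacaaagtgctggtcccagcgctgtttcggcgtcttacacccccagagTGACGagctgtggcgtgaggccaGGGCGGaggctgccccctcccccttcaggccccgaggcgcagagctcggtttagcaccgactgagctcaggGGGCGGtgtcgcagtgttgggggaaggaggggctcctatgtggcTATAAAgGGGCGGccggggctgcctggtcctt
Adamtsl2: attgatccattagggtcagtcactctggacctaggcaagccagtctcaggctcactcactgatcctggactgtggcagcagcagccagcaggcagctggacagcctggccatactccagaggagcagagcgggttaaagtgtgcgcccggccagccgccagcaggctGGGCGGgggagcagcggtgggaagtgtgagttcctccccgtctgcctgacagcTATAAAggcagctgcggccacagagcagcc
Mmp11: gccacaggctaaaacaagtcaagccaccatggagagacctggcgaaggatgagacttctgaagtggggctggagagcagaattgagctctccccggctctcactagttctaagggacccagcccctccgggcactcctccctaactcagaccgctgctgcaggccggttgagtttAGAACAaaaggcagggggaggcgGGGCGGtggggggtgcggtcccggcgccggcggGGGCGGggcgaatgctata

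Adamts1 and Adamtsl2, both higher at D14, hold a TATA box 32 and 30 bases before the start. On both strands, 12.4% of all 32851 promoters of the same length hold that box, and 7 of 47 member promoters do. The GC box occurs 3 times before Adamts1, once before Adamtsl2 and 2 times before Mmp11. It is found in 32.7% of all promoters and in 23 of the 47 member promoters. TGACG stands 170 bases before the Adamts1 start and occurs in 17.8% of all promoters, and AGAACA stands 75 bases before the Mmp11 start and occurs in 16.1%. None of the 3 windows held the AP-1 motif (TGANTCA), the E-box (CACGTG) of basic helix-loop-helix factors, the CCAAT box or the STAT motif (TTCNNNGAA). These matches are descriptions of letters and not binding sites.

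After the filter on low counts 59 of the 69 members were tested among 17686 genes, and 0 passed an adjusted p of 0.05 in the edgeR quasi-likelihood test, in which 0.0339% of all genes passed. At an unadjusted p under 0.05, 8 members were higher at D14 (13.6%, against 5.48% of all tested genes) and 4 were lower (6.78%, against 7.09%). Ranges of D0 and D14 did not overlap for 9 members on the higher side (15.3%, against 10.9% of all genes) and for 4 on the lower side (6.78%, against 10.7%). DESeq2 on the same counts called 4 of the 47 members to which it gave an adjusted p (8.51%, against 1.82% of all genes), namely Adamts1, Adamts15 and Adamtsl2 higher and Mmp11 lower. Log2 fold changes of D14 against D0 had a median of 0.12 over the 59 members and −0.03 over all tested genes. All folds and adjusted p-values below are from edgeR unless DESeq2 is named.

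**Figure D1:**
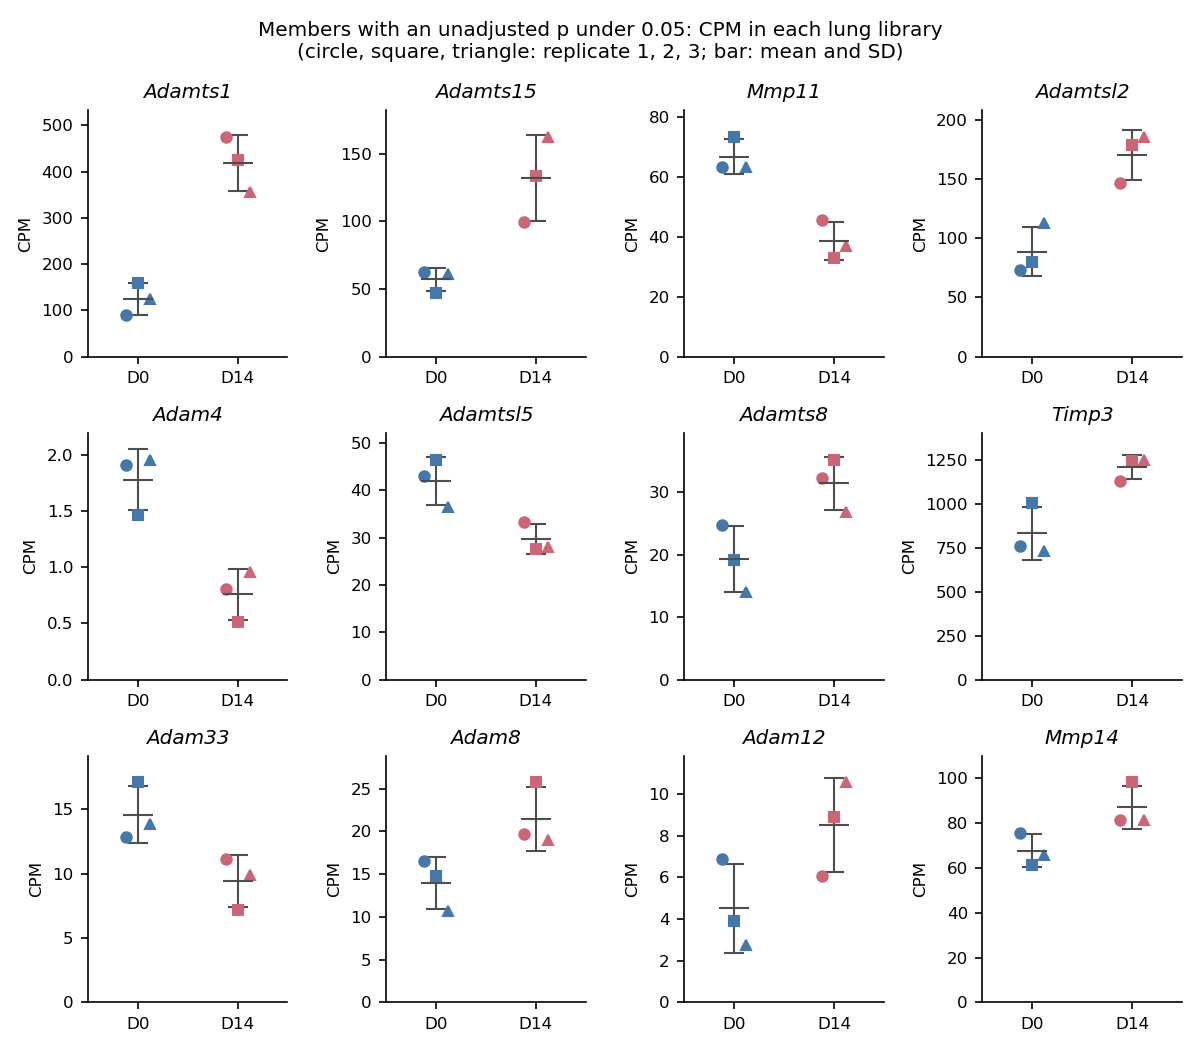
CPM (linear axes from 0) at D0 and D14 of the 12 members with an unadjusted p under 0.05, 1 point per library, with the mean and SD of each day. Adamts1 at 355 to 475 CPM at D14 lies above its D0 libraries at 90.6 to 159, and Adam12 is the 1 member shown whose days overlap.

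The secreted Adamts proteases held the largest difference. Adamts1, a versican-cutting protease that also restrains VEGF, had 90.6, 159 and 124 on day 0, replicates in order, against 475, 424 and 355 CPM on day 14. Every D14 library lay above every D0 library. The log2 fold change was 1.75 (SE 0.24; adjusted p = 0.0857), from 124 ± 34.0 to 418 ± 60.2 CPM (SD, n = 3). It lay between 1.57 and 1.96 when any 1 library was left out, and was 1.75 without D0 replicate 3. With DESeq2 the adjusted p was 1.02e-08 and with no low count filter edgeR gave 0.0372, while over all alternatives it reached 0.397, without D14 replicate 2. Adamts1 is protein-coding and lies on chromosome 16 from 85793827 to 85803113 (GRCm38, minus strand).

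Adamts15, another proteoglycan-cutting member, had 62.8, 47.2 and 61.4 at D0 against 99.4, 134 and 163 CPM at D14. The days did not overlap, and D14 replicate 1 was nearest to D0. Its log2 fold change was 1.21 (SE 0.22; adjusted p = 0.233, and from 0.000305 with DESeq2 to 0.694 without D14 replicate 2). It lies on chromosome 9 from 30899155 to 30922452. Adamts8, its neighbour 20109 bases away on the opposite strand, had 24.7, 19.2 and 14 at D0 against 32.3, 35.2 and 26.8 CPM at D14. These days did not overlap either, and the log2 fold change was 0.70 (SE 0.23; adjusted p = 0.364).

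Adamts5, an aggrecanase of cartilage, lies 53059 bases from Adamts1 on the same strand. It had 24.2, 31.8 and 29.4 at D0 against 25.5, 26.5 and 38.1 CPM at D14, overlapping, with a log2 fold change of 0.08 (SE 0.20). Within each library the ratio of Adamts1 to Adamts5 counts was 3.75, 4.98 and 4.23 at D0 and 18.6, 16.0 and 9.33 at D14. The ratio was higher in 3 of 3 D14 libraries, with an exact two-sided permutation p of 0.1, the smallest that 3 against 3 allow. The ratio of Adamts15 to Adamts8 overlapped between days, at 2.46 to 4.38 and 3.08 to 6.06 (exact permutation p = 0.3). Including 2 ratios of inhibitors given further down, 4 ratios were formed, all chosen after the values were seen. Adjusted over the 4, the smallest p became 0.2.

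The endothelial marker sum was also higher at D14. The summed level of the 6 markers (Pecam1, Cdh5, Kdr, Cldn5, Tek and Tie1) was 4008, 2743 and 1997 at D0 against 4596, 4546 and 4677 CPM at D14, and 6 of 6 had a positive log2 fold change, with a median of 0.68. Smooth muscle and pericyte markers were at 483 to 557 and at 581 to 630 summed CPM. Of these, 4 of 6 were positive, Acta2 and Tagln were negative, and 5 overlapped between days. Of the fibroblast markers 6 of 8 were negative, at 4511 to 7579 and 4891 to 5677 summed CPM, of which Inmt alone gave 2247 to 4631. Pdgfra, 1 of the 2 positive ones, had 331, 247 and 220 at D0 against 347, 419 and 537 CPM at D14. Its days did not overlap (log2 fold change 0.71, SE 0.23, unadjusted p = 0.0162 in edgeR). Tcf21, a negative one, did not overlap either (−0.39, SE 0.19). D0 replicate 1 had the D0 endothelial sum nearest to D14. Of the members higher at an unadjusted p under 0.05 in edgeR, it had the lowest levels of Adamts1 and Adamtsl2 in the 6 libraries. Adamts15, Adamts8, Adam8, Adam12 and Mmp14 were instead highest in it among the D0 libraries, and Timp3 lay between the other D0 libraries. The part of these cells in the values of Adamts1, Adamts15, Adamts8 and the other higher members was not tested.

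The remaining Adamts genes overlapped between days. Adamts10, which acts on fibrillin microfibrils, had 291, 233 and 157 at D0 against 180, 142 and 166 CPM at D14 (log2 fold change −0.48, SE 0.24). Its D0 libraries differed among themselves by 1.86-fold. Adamts9, a versican-cutting protease of endothelium and other cells, had 73.9, 33.2 and 26.8 at D0 against 59 to 76.5 CPM at D14, so that D0 replicate 1 was at the level of D14 (log2 fold change 0.63, SE 0.36). The procollagen N-proteinases, which trim fibrillar procollagens, were close to 0 or uncertain. Adamts2 differed by −0.02 (SE 0.13), with 72.0 to 81.9 CPM over the 6 libraries, Adamts3 by 0.45 (SE 0.72) and Adamts14 by −0.39 (SE 0.47). Over the 16 tested Adamts genes, 9 log2 fold changes were positive and 7 negative, with a median of 0.25.

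Among the Adamtsl genes, Adamtsl2, a microfibril protein that binds fibrillin and LTBP1, was higher at D14. It had 73.6, 80.0 and 113 at D0 against 146, 179 and 186 CPM at D14, with no overlap. The log2 fold change was 0.94 (SE 0.20; adjusted p = 0.320, and from 0.00762 with DESeq2 to 0.725 without D14 replicate 3 over the alternatives). The gene lies on chromosome 2 from 27079379 to 27108981 (plus strand). Adamtsl5, also a fibrillin-binding protein, was lower, with 42.9, 46.5 and 36.4 at D0 against 33.3, 27.6 and 28.0 CPM at D14, again with no overlap (log2 fold change −0.50, SE 0.16; adjusted p = 0.364). Adamtsl4 ranged from 55.1 to 56.6 at D0 and had 46.3, 57.6 and 69.0 CPM at D14. Its log2 fold change of 0.05 (SE 0.17) turned to −0.02 without scaling factors.

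**Figure D2:**
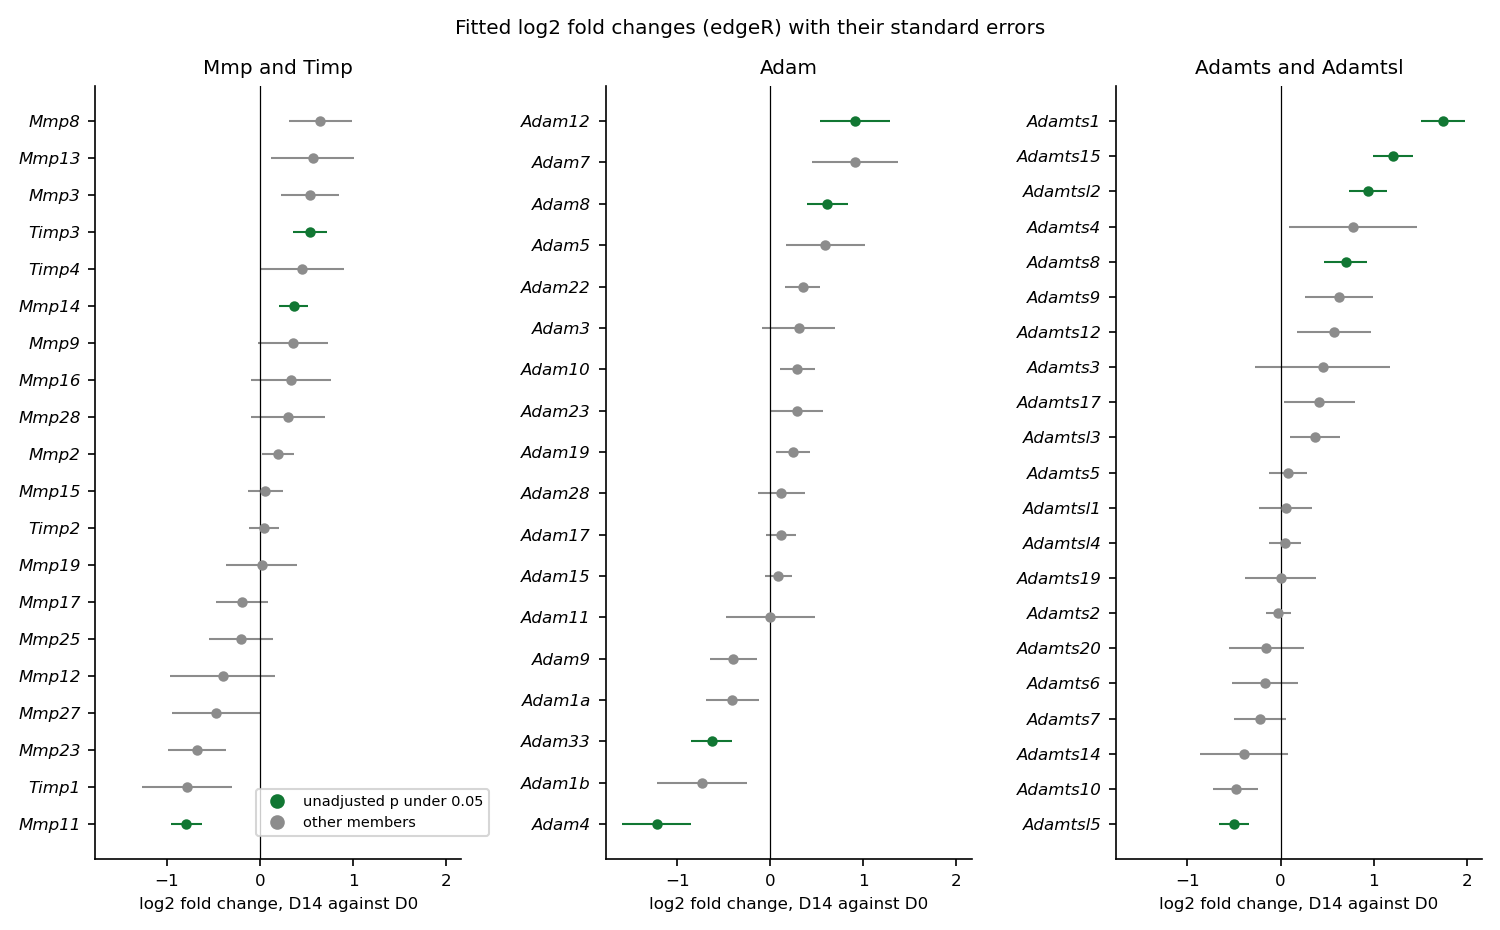
Log2 fold changes of D14 against D0 (points) with standard errors (lines) for the 59 tested members, in 3 panels by family, with the 12 members at an unadjusted p under 0.05 in green. Adamts1 at 1.75 is the highest and Adam4 at −1.22 the lowest.

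Mmps as a family were split between the directions, with 10 of 16 tested members positive, 6 negative and a median of 0.12. Mmp11, stromelysin 3, which is activated inside the cell by furin, was lower at D14. It had 63.2, 73.5 and 63.5 at D0 against 45.7, 33.1 and 37.0 CPM at D14, and the days did not overlap. The log2 fold change was −0.79 (SE 0.17; adjusted p = 0.316, and from 0.011 with DESeq2 to 0.725 without D14 replicate 3). It lies on chromosome 10 from 75923222 to 75936496 and overlaps Chchd10 on the opposite strand. Strand handling is not given in the sources used here, so reads of the 2 genes may not be separable. Chchd10 had 1952 to 2533 counts at D0 and 1710 to 2097 at D14.

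The activation complex of Mmp14, Timp2 and Mmp2, in which Mmp14 on the cell surface activates the gelatinase Mmp2 through bound Timp2, was well expressed. Mmp14 had 75.6, 61.1 and 65.8 at D0 against 81.3, 98.0 and 81.4 CPM at D14, without overlap (log2 fold change 0.36, SE 0.15; adjusted p = 0.393). Mmp2 had 169, 118 and 132 at D0 against 159, 163 and 158 CPM at D14. The D14 libraries agreed closely and lay inside the D0 range (log2 fold change 0.19, SE 0.17). The ratio of Mmp14 to Timp2 counts was 0.0638 to 0.0959 at D0 and 0.094 to 0.107 at D14, overlapping (exact permutation p = 0.3). Mmp15, a second membrane-type enzyme, had 191 to 290 at D0 against 228 to 258 CPM at D14 (log2 fold change 0.06, SE 0.19, and −0.02 without scaling factors).

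Mmp9, the gelatinase of neutrophils and macrophages, had 14.8, 12.2 and 11.7 at D0 against 11.3, 27.8 and 10.5 CPM at D14. The log2 fold change was 0.35 (SE 0.38), and −0.25 without D14 replicate 2. Mmp8, the neutrophil collagenase, was also highest in D14 replicate 2, at 7.32 CPM against 2.61 to 4.16 elsewhere. Of the 12 neutrophil markers outside the members, 7 were highest in that library too, among them the receptor gene Cxcr2 with 312 counts against 71 to 216 elsewhere, and 5 were highest in another library, among them Csf3r, Ltf and Lcn2. The 12 summed to 243 to 599 CPM at D0 and 224 to 378 at D14, and without Lcn2, which had 445 CPM in D0 replicate 3, to 154 to 269 and 157 to 304. In edgeR 0 of the 11 tested had an unadjusted p under 0.05, and their part in Mmp9 and Mmp8 was not tested.

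A second library stood apart in genes of macrophages. In D0 replicate 3 the macrophage elastase Mmp12 reached 23.2 CPM, with 5.23 to 9.55 CPM elsewhere. Timp1 had 18.0 CPM there and 4.29 to 8.54 elsewhere, and Mmp19, a secreted enzyme also made by macrophages, 56.2 and 22.0 to 41.2. Marco, an alveolar macrophage receptor, had 508 counts in D0 replicate 3 and 13 to 37 elsewhere. The macrophage markers Siglecf, Car4 and Cx3cr1 were highest in other libraries, and Cx3cr1 was lowest in D0 replicate 3, at 7.78 CPM. The macrophage part in the values of Mmp12, Timp1 and Mmp19 was not tested. Mmp23, a membrane-anchored member, had 14.1, 27.8 and 35.0 at D0 against 15 to 17.4 CPM at D14 (log2 fold change −0.68, SE 0.31). Mmp3, stromelysin 1, had 6.90, 11 and 17.2 at D0 against 16.4 to 18.1 CPM at D14 (0.54, SE 0.31). In both genes the D14 libraries were close together and the D0 libraries wide apart.

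**Figure D3:**
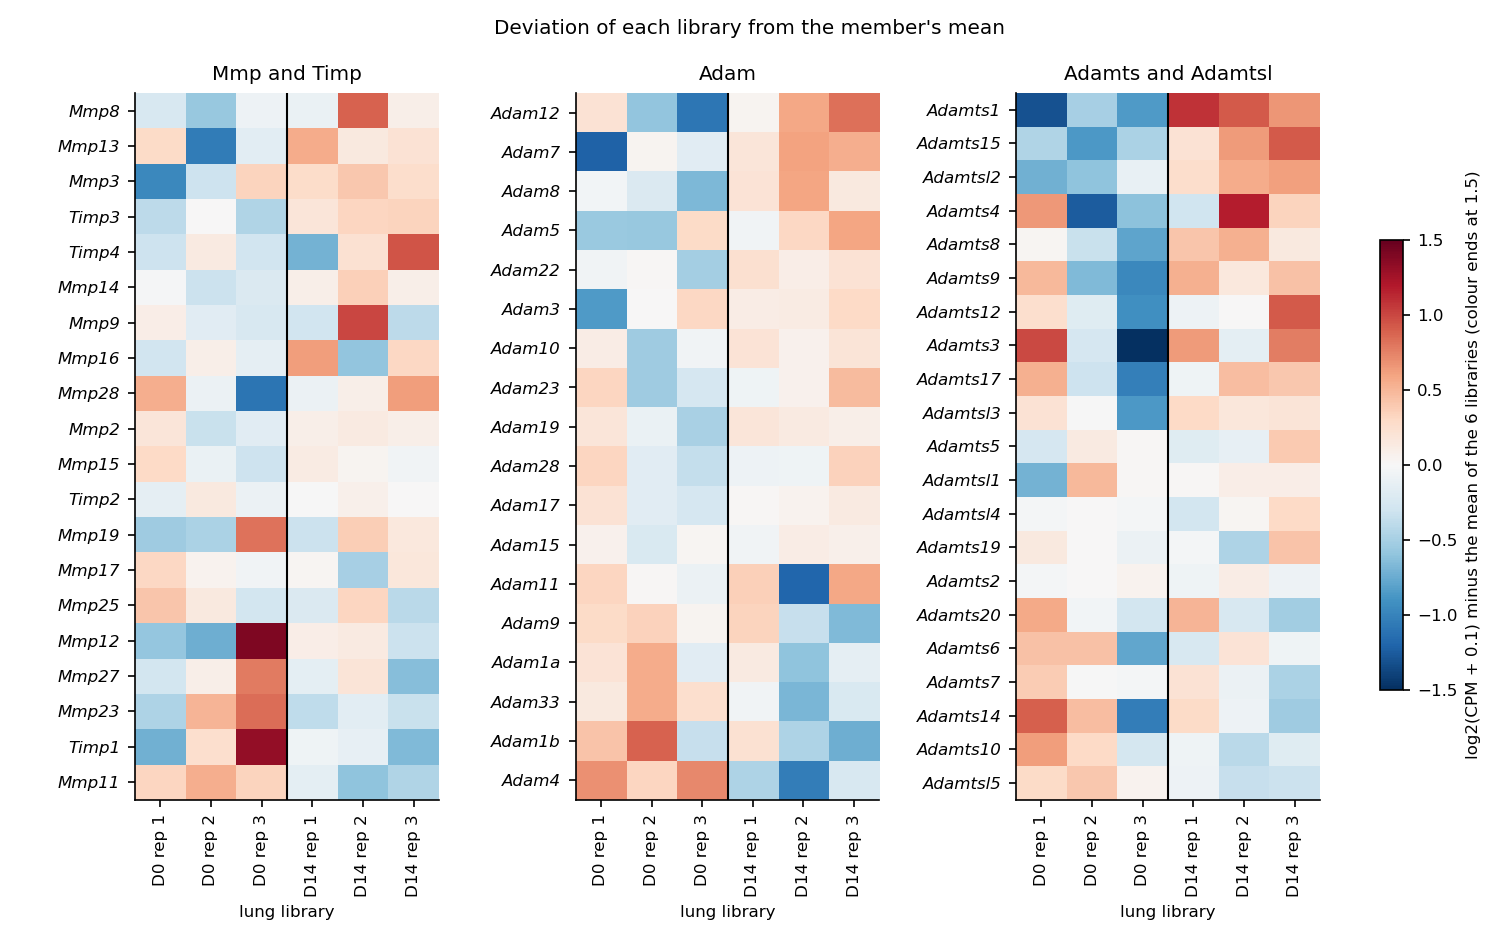
Log2(CPM + 0.1) of each tested member in the 6 lung libraries (columns) after subtracting the member's mean, red above and blue below, with a black line between D0 and D14. D0 replicate 3 holds the deep red of Mmp12 and Timp1 and the deep blue of Adamts3, and it was the lowest library for 17 of the 59 members.

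D0 replicate 3 was the lowest of the 6 libraries for 17 of 59 members (28.8%, against 29.8% of all tested genes) and the highest for 7 (11.9%, against 28.6%). Within D0 the highest library exceeded the lowest by a median of 1.61-fold over the members, and within D14 by 1.45-fold. All tested genes had 1.51-fold and 1.31-fold. The Adamts genes had the highest median of the families within D0, at 1.85-fold. These ratios were not adjusted for count level. They ran from 1.06-fold for Adamts2 to 12.8-fold for Adamts3, which had 31, 11 and 2 counts at D0.

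None of the 4 Adam genes most abundant per length, all sheddases, had an unadjusted p under 0.05 in edgeR. Adam10, which cuts Notch and cadherins, had 141, 90.4 and 126 at D0 against 150, 137 and 150 CPM at D14 (log2 fold change 0.29, SE 0.19). Adam17, which releases TNF and ligands of the EGF receptor, had 81.6, 62.6 and 59 at D0 against 71.2, 72.7 and 76.8 CPM at D14 (0.12, SE 0.16). Adam15, an endothelial and epithelial member, had 109 to 134 and 124 to 139 CPM (0.09, SE 0.15). Adam9 had 163, 170 and 138 at D0 against 168, 105 and 84.8 CPM at D14 (−0.39, SE 0.26), with D14 replicate 1 at the D0 level. Leaving out 1 library moved Adam9 between −0.72 and −0.20, Adam10 between 0.13 and 0.43, Adam15 between 0.00 and 0.15 and Adam17 between 0.03 and 0.28. For all 4 the days overlapped.

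Lower-level Adam proteases included those with the smaller p-values. Adam8, found on neutrophils and macrophages, had 16.6, 14.7 and 10.6 at D0 against 19.7, 25.7 and 18.9 CPM at D14, without overlap (log2 fold change 0.61, SE 0.22; adjusted p = 0.364). Adam33, a gene of airway smooth muscle and fibroblasts, had 12.8, 17.1 and 13.9 at D0 against 11.2, 7.20 and 9.92 CPM at D14, without overlap (−0.63, SE 0.22; adjusted p = 0.364). Adam12, a stromal member, had 6.90, 3.89 and 2.73 at D0 against 6.07, 8.91 and 10.6 CPM at D14. Its days overlapped through D0 replicate 1 (log2 fold change 0.91, SE 0.38; adjusted p = 0.391).

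Of the 10 Adam genes without the catalytic motif, 7 were tested, 6 of them with positive and 1 with negative log2 fold changes. Together they made up 0.54% of the members' summed level per length. Adam22 and Adam23, receptors of the secreted LGI proteins in nerve tissue, were the most abundant. Adam22 had 17.1, 18.0 and 12.4 at D0 against 20.9, 19.0 and 20.5 CPM at D14, without overlap (0.35, SE 0.19; adjusted p = 0.453). Adam7, an epididymal member, had 5, 13 and 10 counts on day 0 and 16, 20 and 19 on day 14, without overlap but at under 1 CPM on average (0.91, SE 0.46; adjusted p = 0.437). Adam23 had 5.10 to 9.34 and 7.11 to 10.4 CPM, overlapping (0.28, SE 0.28). Adam4 had only 33, 23 and 28 counts on day 0 against 14, 8 and 15 on day 14 (log2 fold change −1.22, SE 0.37; adjusted p = 0.362). It overlaps Gm20498 and Cox16 on the same strand, so its reads cannot be assigned with certainty. Gm20498 had 36, 41 and 32 counts at D0 against 65, 42 and 48 at D14, the opposite direction to Adam4. Cox16 had 320 to 384 counts at D0 and 237 to 338 at D14.

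Timp3 and Timp2 were the most abundant members per length. Timp3, the inhibitor that stays bound to the matrix and also blocks Adam17, had 760, 1006 and 732 at D0 against 1129, 1245 and 1252 CPM at D14. The days did not overlap (log2 fold change 0.54, SE 0.19; adjusted p = 0.364). Timp2 had 788, 958 and 809 at D0 against 858, 913 and 866 CPM at D14, all inside the D0 range (0.04, SE 0.16, and −0.03 without scaling factors). The ratio of Timp3 to Timp2 counts was 0.965, 1.05 and 0.905 at D0 and 1.32, 1.36 and 1.45 at D14. It was higher in 3 of 3 D14 libraries, with an exact permutation p of 0.1, the smallest possible.

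Timp1 and Timp4 were low. Timp1, induced in inflammation, differed by −0.78 (SE 0.49), and by −0.10 without D0 replicate 3. Timp4 had 1.86 to 2.55 at D0 against 1.39, 2.74 and 4.54 CPM at D14 (0.46, SE 0.45, and −0.03 without D14 replicate 3). That library also had the highest adipocyte marker sum, whose part in the value was not tested. Timp1, Timp3 and Timp4 overlap the synapsin genes Syn1, Syn3 and Syn2 on the opposite strand. Syn3 had at most 61 counts in a library against up to 19572 of Timp3, but Syn2 had 220 to 390 counts against 24 to 71 of Timp4.

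**Figure D4:**
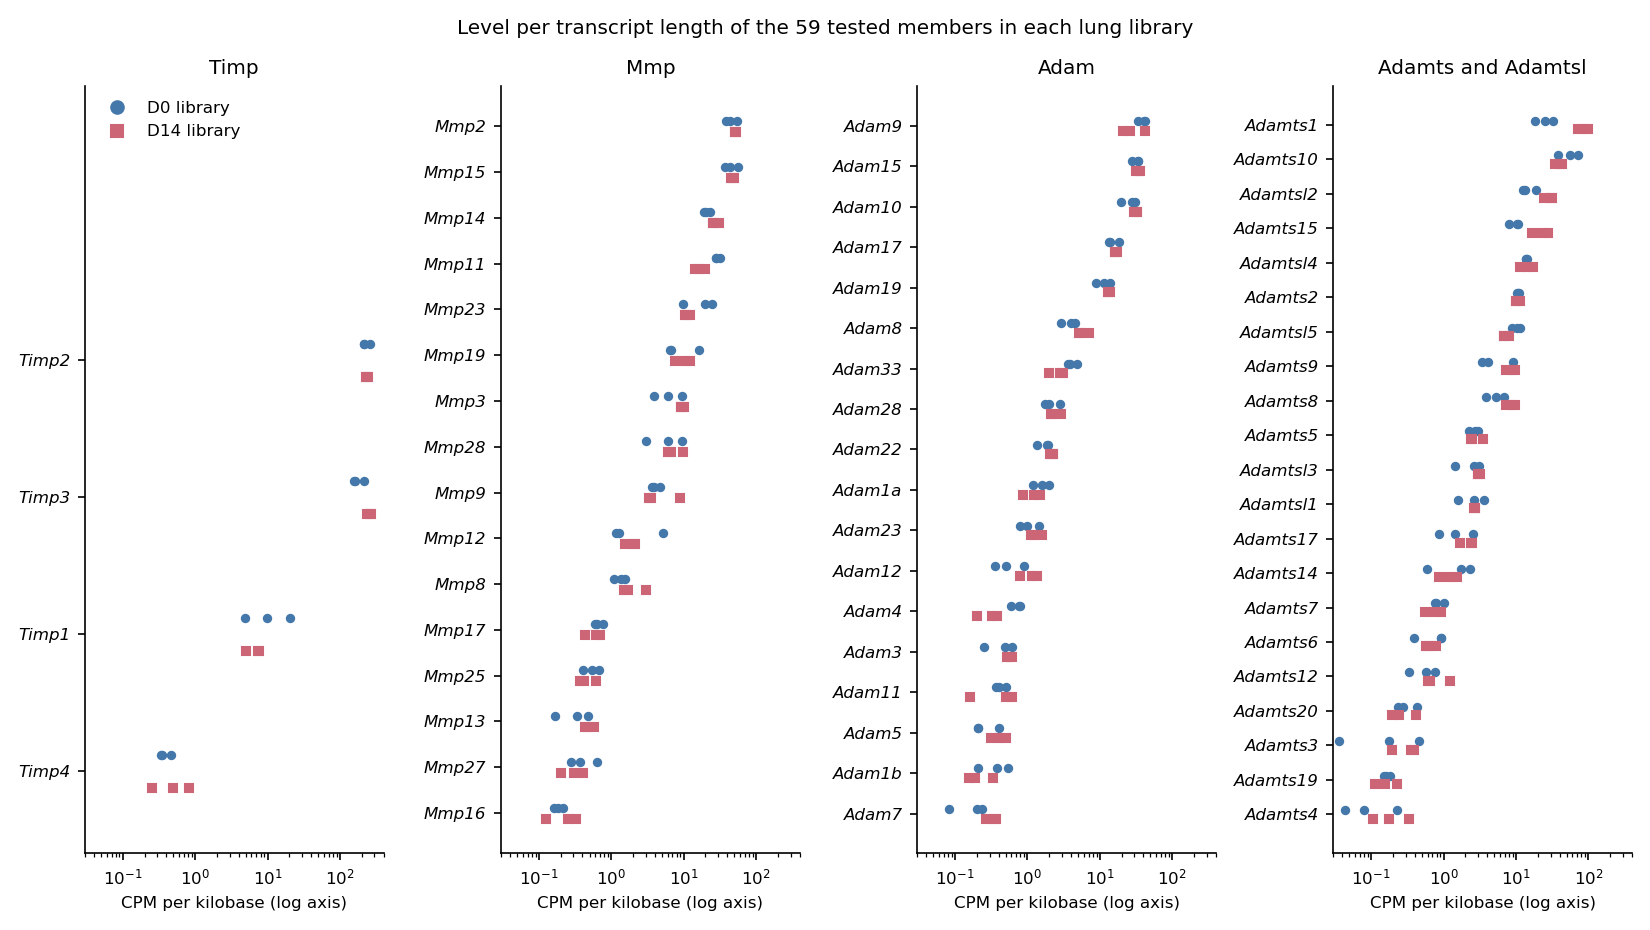
Level per length of the 59 tested members, as CPM per kilobase of the longest annotated transcript on a log axis, with 1 point per D0 library (blue circles) and D14 library (red squares). Timp2 and Timp3 lie above 100 in every library, and Adamts1 is the next on the mean of 6 libraries.

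Levels can be compared between genes only per length, here as CPM per kilobase of the longest annotated transcript. On that scale Timp2 stood at 230 ± 25 at D0 and 237 ± 7.96 at D14, and Timp3 at 176 ± 31.8 and 256 ± 14.6 (SD, n = 3). On the mean of both days Adamts1 followed at 25.5 ± 6.96 and 85.6 ± 12.3, then Mmp2 at 45.4 ± 8.50 and 52.0 ± 0.826, Adamts10 at 55.1 ± 16.4 and 39.4 ± 4.66 and Mmp15 at 45.6 ± 9.92 and 47.4 ± 2.90. The last 3 did not differ from each other beyond their spread at D0. Adamts1 ranked 10 of 59 at D0, below Adam9, Adam15, Mmp11 and Adam10 as well, and 3 of 59 at D14. Of the tested members, 10 had a mean of at least 100 CPM, 23 lay from 10 to 100, 21 from 1 to 10 and 5 under 1 CPM.

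**Figure D5:**
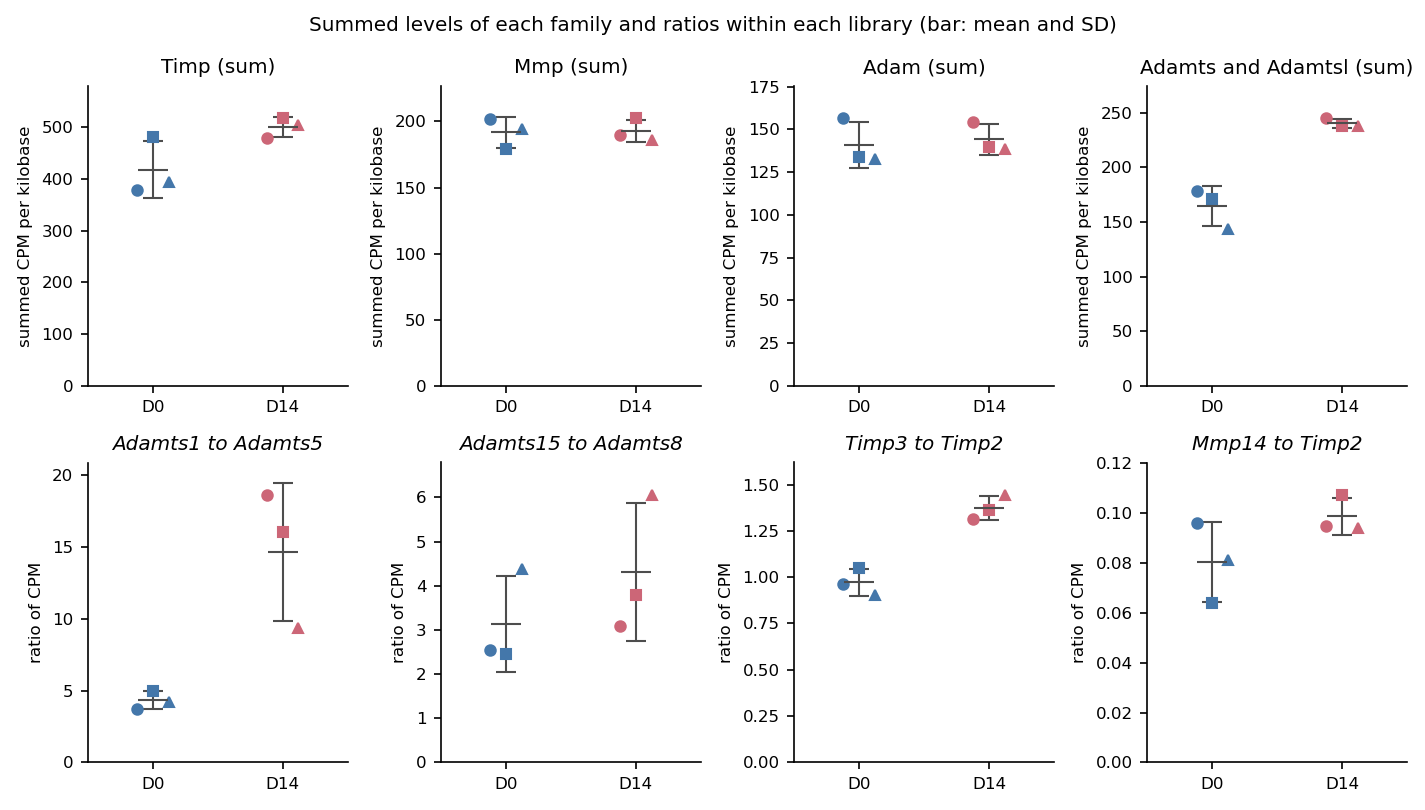
Top, summed CPM per kilobase of each family per library. Bottom, ratios of CPM of 4 pairs of members within each library, each with points for D0 and D14 libraries and the mean and SD. The Adamts and Adamtsl sum at D14 lies above D0, which is not so once Adamts1 is taken out, while the Mmp and Adam sums overlap.

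Summed per length, the 23 Adamts and Adamtsl genes stood at 178, 171 and 144 at D0 and 245, 238 and 238 at D14, with no overlap. The Mmp sum was 202, 179 and 194 at D0 and 190, 202 and 186 at D14. The Adam sum was 132 to 157 and 138 to 155, also overlapping. Timps made up 46.1% of the level of all members, with 379 to 481 at D0 and 478 to 518 at D14. Adamts1 alone held 15.5% of the Adamts and Adamtsl sum at D0 and 35.6% at D14, and 79.3% of the difference between the days. Without Adamts1 that sum was 160, 139 and 118 at D0 and 148, 151 and 165 at D14, and the days overlapped.

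The other 20 tested members overlapped between days, and their log2 fold changes ran from −0.74 (SE 0.49) for Adam1b to 0.78 (SE 0.68) for Adamts4, an aggrecanase with 3 to 23 counts. They were Adam1a, Adam1b, Adam3, Adam5, Adam11, Adam19 and Adam28, Mmp16, Mmp17, Mmp25 and Mmp28, Adamts4, Adamts6, Adamts7, Adamts12, Adamts17, Adamts19 and Adamts20, and Adamtsl1 and Adamtsl3. Adam19, a protease of developing heart and other tissues, was the most abundant of them per length, with 56.0 to 88.6 at D0 against 83.2 to 89.2 CPM at D14.

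Members at or near the limit of detection were 10, all below the count filter and with at most 14 counts in a library. Adamts13, the protease of von Willebrand factor, made mainly in liver, had 7 to 14 counts, and Mmp24 had 3 to 13. Adam32, Adam6b, Adam21, Adam18 and Adamts16 had 0 to 10 counts. Mmp7, matrilysin, had 2 counts in D14 replicate 1 and 0 in the other 5 libraries, Mmp21 had 3 counts in D0 replicate 1 only, and Adam30 had 2 counts in D14 replicate 3 only. A count of 0 allows up to 3 counts, or 0.174 to 0.210 CPM, for counting error. Mmp13, the collagenase of osteoblasts and cartilage, was tested with 7 to 22 counts at D0 and 18 to 27 at D14 (log2 fold change 0.57, SE 0.44).

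Some members sit in clusters, and none of the tested neighbours described here had an unadjusted p under 0.05 in edgeR with all 6 libraries. On chromosome 9 from 7272514 to 7699585 lie Mmp13, Mmp12, Mmp3, Mmp8, Mmp27 and Mmp7. Mmp13, Mmp3 and Mmp8 had log2 fold changes of 0.57 (SE 0.44), 0.54 (SE 0.31) and 0.65 (SE 0.34), the last at 0.28 without D14 replicate 2. Mmp27 stood at −0.47 (SE 0.48), and Mmp7 was not tested. Mmp12 stood at −0.40 (SE 0.56), and at 0.64 (SE 0.24; unadjusted p = 0.0314) in the edgeR fit without D0 replicate 3. Without any other single library it stayed negative, from −0.74 without D0 replicate 2 to −0.27 without D14 replicate 3. On chromosome 8 the testis genes Adam18, Adam3, Adam5 and Adam32 lie next to Adam9. Adam9 had 1325 to 2906 counts, while these neighbours had 0 to 26.

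Other genes of the pathway were taken from lists of activators, partners, substrates and other inhibitors. Counts of these lists stand beside 5.48% higher and 7.09% lower among all tested genes. Among activators of proenzymes 2 of 11 tested were higher at an unadjusted p under 0.05, 0 lower and 9 neither. These were Plat, tissue plasminogen activator, with 30.7, 35.0 and 34.5 at D0 against 66.5, 78.5 and 69.7 CPM at D14 (log2 fold change 1.10, SE 0.14; adjusted p = 0.0831), and Plaur, the urokinase receptor, at 1.04 (SE 0.24; adjusted p = 0.326). Furin, which activates Mmp14, Mmp11 and many Adams, stood at 0.05 (SE 0.18). Among other inhibitors, Reck, a membrane-anchored inhibitor of Mmps, stood at 0.54 (SE 0.18; adjusted p = 0.364).

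Proteoglycan and matrix substrates of Adamts proteases had 4 of 15 tested genes higher at an unadjusted p under 0.05, 0 lower and 11 neither, with a median of 0.36, beside −0.03 over all tested genes. Vcan, versican, a main substrate of Adamts1, had 4.35, 4.65 and 4.76 at D0 against 6.71, 11.5 and 7.74 CPM at D14, without overlap (log2 fold change 0.91, SE 0.26; adjusted p = 0.347). Fn1, fibronectin, stood at 0.70 (SE 0.25; adjusted p = 0.364), Ltbp1, a latent TGF-beta binding protein, at 0.55 (SE 0.20; adjusted p = 0.364) and Postn, periostin, at 0.67 (SE 0.28; adjusted p = 0.390). Of 27 sheddase substrates 0 were past that threshold, with 16 positive and 11 negative. Ager, highest in CPM with no correction for length, stood at −0.29 (SE 0.28). Of 8 tested partners of the sheddases 1 was lower, the Adam10 partner Tspan15 (−0.41, SE 0.16; adjusted p = 0.380), and 0 were higher. Neither the 5 related metzincins outside the rule nor the 10 other matrix proteases tested held a gene past that threshold. The genes of highest CPM on these lists, again with no correction for length, were Bmp1 at −0.21 (SE 0.14) and Ctsd at −0.45 (SE 0.31).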

How the data were processed

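The authors deposited 1 table of estimated counts by gene symbol with a column for each of the 6 libraries and no depth scaling. The build GRCm38 and the tools HISAT2 2.1.0, StringTie 1.3.4b, CASAVA 1.8 and edgeR are named, without role or order, per the submitters' processing notes. How reads were counted, on which strand and with which annotation is not given in the sources used here. Values were whole and rounding changed none, except in 2 displaced lines, which were left out with the 2 empty lines before them (Tnf and Tgfb1, not analysed here). Because the columns are not whole throughout, they were treated as estimated counts where raw counts had been assumed. Another 50 rows repeated a symbol and were fitted as rows of their own. Another 14 protein-coding symbols of the annotation that match the patterns are not analysed here. No member symbol was repeated, and 0 columns were of no sample.

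The whole table was fitted with edgeR 4.0.16 in R 4.3.3 (TMM factors, default low count filter, robust quasi-likelihood F test, two-sided, no covariate), with Benjamini-Hochberg adjustment over all 17686 tested genes. Standard errors were taken as the size of the log2 fold change over the root of F. CPM were scaled by TMM. Transcript lengths, positions and overlaps come from GENCODE M21 for GRCm38, in which all 69 members were found. Named were members with an unadjusted p under 0.05, those averaging at least 1 CPM whose days did not overlap, the 2 most abundant per length of each class, all Timps, Mmp2, Mmp9, Adam10 and Adam17. Others were named after their values were seen. The count over the list of other inhibitors is not reported here. Members and lists were chosen with earlier results of these data known. Alternatives were DESeq2 1.42.0, limma-voom (limma 3.58.1), RLE factors, no scaling factors, 2 other filters, non-robust estimation, a block for the replicate number, leaving out each library in turn and summing repeated symbols. Checked on simulated data (3 simulations, 17686 genes, 200 changed in each), the D14 against D0 test recovered 19.2% of changes of 1 and 79.3% of changes of 2 on the log2 scale at an adjusted p of 0.05. Over the 3 simulations 22 of its 312 calls were false.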

Additional observations from a re-analysis of the deposited data

How the results depend on the processing

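Members past an adjusted p of 0.05 numbered 0 with edgeR, 4 with DESeq2 and 1 (Adamts1) with no low count filter, and 0 without any single library. Members at an unadjusted p under 0.05 numbered 8 higher and 4 lower. Without scaling factors 5 were higher. Leaving out 1 library gave 3 to 12 higher (3 without D14 replicate 2, 5 without D14 replicate 3) and 2 to 6 lower (2 without D0 replicate 2 or D14 replicate 2). Median log2 fold changes with 1 library left out ran from 0.0204 to 0.247 for Mmp, 0.0915 to 0.315 for Adam, 0.0547 to 0.317 for Adamts with Adamtsl (0.0765 with all, 0.317 without D0 replicate 2) and 0.0155 to 0.382 for Timp members. Of 390 values of the 26 named members under 15 alternatives, 377 kept their direction and side of the threshold, 5 passed it and 8 changed sign. As 0 members passed the threshold in the main edgeR fit, no value could fall back behind it. A missing adjusted p, as that of Adam4 with DESeq2, was counted as kept. The changes of sign were Adamtsl4 (−0.0208 with no scaling factors, −0.0965 to 0.193 with 1 library left out, lowest without D14 replicate 3), Mmp15 (−0.0236 with no scaling factors, −0.0694 to 0.247, lowest without D0 replicate 3), Timp2 (−0.0252 with no scaling factors, −0.0019 to 0.142, lowest without D0 replicate 1), Mmp9 (−0.245 to 0.598, lowest without D14 replicate 2) and Timp4 (−0.0266 to 0.798, lowest without D14 replicate 3). The cause was not tested. Deviations of same-numbered libraries of the 2 days had correlations of 0.118, −0.0548 and −0.0972, within the −0.168 to 0.183 of differently numbered ones. The labels state no pairing, and 3 libraries per day are too few for these correlations to settle it. With the replicate block 7 members were higher and 3 lower at an unadjusted p under 0.05, 0 members passed the adjusted threshold, and the calls among all 17686 genes went from 6 to 0. Over all genes DESeq2 made 272 calls and edgeR with no low count filter 26. Without D0 replicates 1, 2 and 3 in turn there were 3, 1 and 22 calls, and 0 without any D14 library. Depth limits the members under 10 counts in most libraries.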
